A study of Mus musculus with 16 samples.

Results

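The genes described here are those of vesicle traffic and endocytosis, taken from an array comparison of kidneys from Pept2 knockout mice with a pool of wild-type kidneys. They were chosen by gene symbol: the numbered Rab, Snx, Vps, Sec, Arf, Stx, Vamp and Lrp genes, the subunits of the COPI coat, the clathrin chains, the adaptor complexes and Cubn. The array named 173 such genes, and 138 of them were measured, out of 6191 measured genes in all. A gene counted as measured when every knockout mouse had a value with its RNA in either channel. The other 35, among them the adaptor subunit Ap2b1 and the fusion proteins Vps16 and Vps45, had no complete set of values. A choice by symbol also takes in genes that work elsewhere: Vps72 is a subunit of chromatin remodelling complexes, and Rab26os is named as a transcript opposite to Rab26.

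Cells move membrane and cargo between compartments in vesicles that are shaped by coats, directed by small GTPases and fused by SNARE proteins. Rab and Arf GTPases mark each compartment, clathrin with its adaptors and the COPI and COPII complexes bend the membrane, retromer and sorting nexins carry receptors back from endosomes, and syntaxins and Vamps bring the membranes together. In the kidney this machinery is known best from the proximal tubule, whose cells retrieve filtered protein through the receptors megalin (Lrp2) and cubilin (Cubn) and recycle both to the brush border. Slc15a2 encodes PEPT2, a brush border transporter that takes up small peptides from the filtrate.

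The knockout group was 4 male Pept2-/- mice aged 88 (±2) days, and the comparison RNA was a pool from 5 Pept2+/+ kidneys. All animals came from one line on a mixed C57BL/6 and 129Sv background, bred from Pept2+/- F4 mice. Right kidneys were taken throughout, and the wild-type kidneys were never measured singly. Each knockout mouse was hybridised on 4 spotted cDNA arrays against the pool, with its RNA in channel 1 on 2 arrays and in channel 2 on the other two. Values are log2 ratios of knockout over pool, averaged to 1 value per mouse, so n is 4 mice in every test against the pool. An array carried values for 10134 to 18400 of its 20205 probes and for 115 to 137 of the 138 trafficking genes. The robust spread of log2 ratios on an array (scaled median absolute deviation) was 0.15 to 0.22 for mice 1 and 2 and 0.13 to 0.35 for mice 3 and 4. Slc15a2 stood at -2.51 (SE 0.10, adjusted p = 2.172e-05 in limma) and was negative on all 16 arrays. The deposited values do not say which channel is the numerator. The likely direction was chosen so that Slc15a2 is lower in knockout kidney, and under the other reading every sign given here is exchanged. In whole-kidney RNA, fewer cells of a type and less RNA per cell cannot be told apart.

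No trafficking gene passed the adjusted threshold of 0.05 against the wild-type pool in limma, where 13 of all 6191 genes (0.210%) did. Their ratios ran from -0.24 for Rab18 to 0.21 for Ap2m1, with 6 genes beyond 0.2 in either direction and none beyond 0.5. The median was -0.01 over the trafficking genes and 0.00 over all genes, and the median absolute log2 ratio was 0.067 against 0.062. A negative ratio was found in 76 trafficking genes (55.1%) and in 51.8% of all genes. At an unadjusted p under 0.05, 7 trafficking genes (5.07%) were higher, against 6.80% of all genes, and 15 (10.9%) were lower, against 10.0%. All 4 mice lay above 0 for 17 trafficking genes (12.3%), against 11.4% of all genes. All 4 mice lay below 0 for 22 (15.9%), against 14.3%. The shares among the trafficking genes were thus near those of the whole array, and no shift of the group as a whole was seen. The 95% confidence interval of a trafficking gene reached a median of 0.115 to either side of its ratio, and 0.237 for Rab18, where it was widest. A missed threshold does not show that a gene was equal in both genotypes. The pool hides how far single wild-type kidneys vary, and its error is shared by all 4 mice. Nothing in the labels says whether the knockout mice shared a litter.

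**Figure D1:**
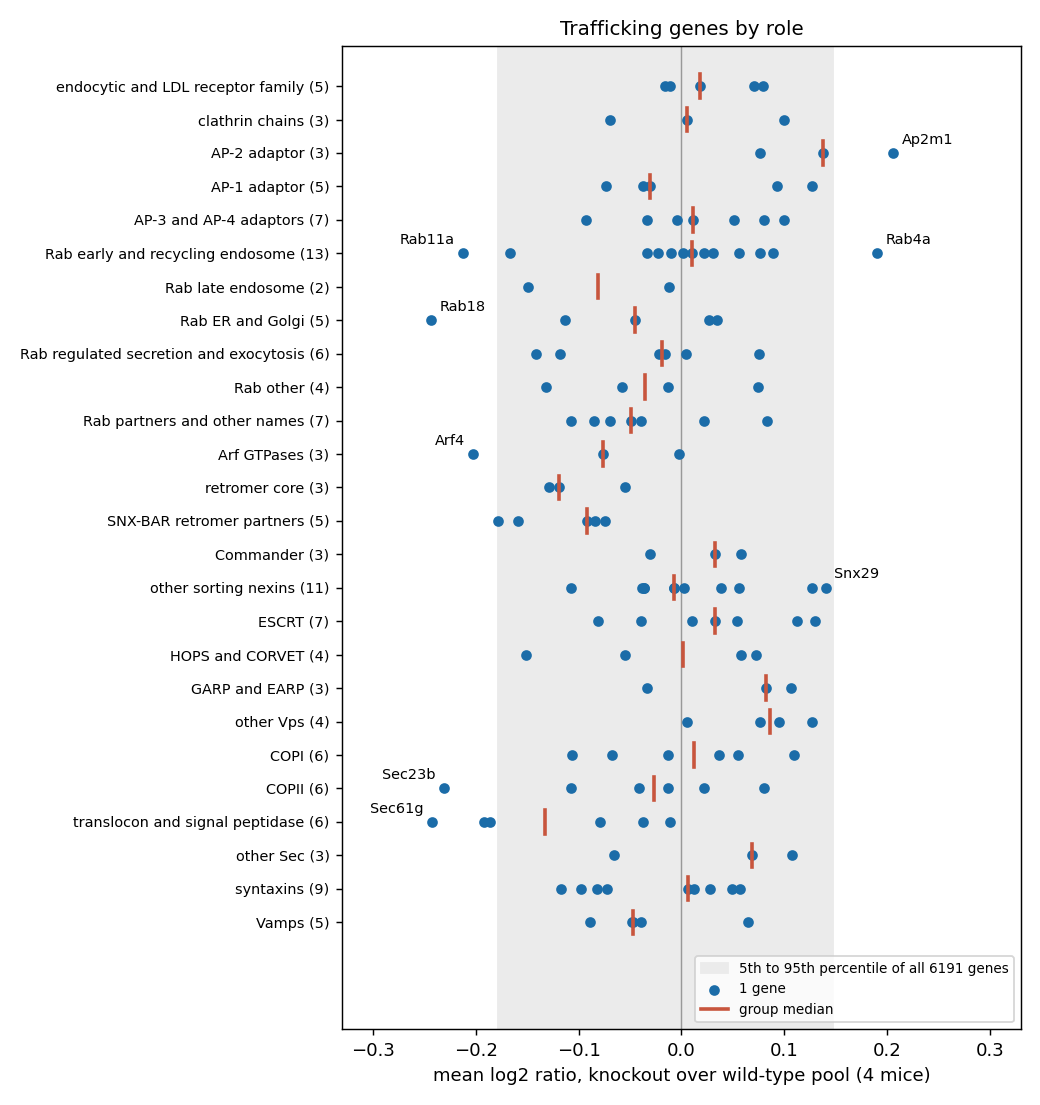
Mean log2 ratio of knockout over wild-type pool (x axis, 4 mice) for each of the 138 trafficking genes, 1 point per gene, arranged by role with the number of genes in brackets. The grey band holds the 5th to 95th percentile of all 6191 genes (-0.18 to 0.15), and 7 trafficking genes lie below it and 2 above it.

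Rab11a, Sec61g and Ap2m1 had the smallest p-values among the trafficking genes, and their upstream sequences are shown for that reason. RefSeq (assembly GRCm38.p6) gave a promoter entry for 110 of the 138 genes. Each line holds the 250 bases before the gene's start, in the direction of transcription, with matches to the searched motifs in capitals. The motifs were GGGCGG (the core of an SP1 box), CCAAT (the CCAAT box), CACGTG (an E-box) and CCGGAAG (an ETS site), each searched on both strands, where matches may overlap.
Rab11a, chr9:64737757-64738006, minus strand: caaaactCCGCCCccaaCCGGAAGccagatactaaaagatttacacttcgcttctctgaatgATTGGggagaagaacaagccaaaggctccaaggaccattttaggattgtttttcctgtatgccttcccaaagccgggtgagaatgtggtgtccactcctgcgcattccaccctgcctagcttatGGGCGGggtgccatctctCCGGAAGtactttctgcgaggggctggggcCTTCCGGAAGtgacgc
Sec61g, chr11:16508485-16508734, minus strand: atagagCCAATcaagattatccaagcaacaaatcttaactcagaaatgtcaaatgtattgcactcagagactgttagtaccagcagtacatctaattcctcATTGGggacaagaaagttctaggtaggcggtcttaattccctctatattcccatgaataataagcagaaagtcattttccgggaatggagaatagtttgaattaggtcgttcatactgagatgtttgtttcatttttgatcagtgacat
Ap2m1, chr16:20535230-20535479, plus strand: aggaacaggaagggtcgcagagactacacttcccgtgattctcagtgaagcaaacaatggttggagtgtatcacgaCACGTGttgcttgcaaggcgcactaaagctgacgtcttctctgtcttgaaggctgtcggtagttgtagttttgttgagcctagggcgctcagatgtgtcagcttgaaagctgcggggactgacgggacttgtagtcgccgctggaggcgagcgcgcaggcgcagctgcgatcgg
The Rab11a window held 2 matches to GGGCGG, 1 to CCAAT and 4 to CCGGAAG, and that of Sec61g held 2 to CCAAT. The Ap2m1 window held 1 match to CACGTG. Over the 132 promoter entries of trafficking genes, 62.1% held GGGCGG, against 32.7% of all 32851 entries of the same length, and 18.2% held CCGGAAG, against 6.91%. CCAAT was found in 34.8% against 33.8% and CACGTG in 9.09% against 6.02%. A match describes letters in a window only, and some genes have more than 1 entry. The 32851 entries were not limited to measured genes. These shares therefore do not set the trafficking genes against other measured genes.

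The endocytic receptors of the proximal tubule lay close to the wild-type pool. Lrp2, the large receptor that binds albumin, vitamin carriers and hormones, stood at 0.06, 0.08, 0.01 and -0.07 in mice 1 to 4, with a mean of 0.02 (SE 0.05, adjusted p = 0.85 in limma). Its 2 probes gave 0.01 and 0.03. Cubn, which binds intrinsic factor with its vitamin and shares ligands with megalin, stood at 0.15, 0.02, 0.07 and 0.04, with a mean of 0.07 (SE 0.05, adjusted p = 0.44). All 4 mice were above 0 for Cubn, but its mean was 0.20 with knockout RNA in channel 1 and -0.05 with knockout RNA in channel 2. Lrp10, a sorting receptor of the same family, stood at -0.03, -0.15, 0.22 and 0.28, so that the mice fell on both sides of 0. Lrp1 and Lrp1b, which were named after their values were seen, completed the receptors at -0.01 and -0.02. The 95% interval of Lrp2 ran from -0.09 to 0.13 and that of Cubn from -0.03 to 0.17.

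The clathrin coat showed no common direction. Cltb, a light chain, lay above 0 in every mouse at 0.04, 0.09, 0.19 and 0.08 (mean 0.10, SE 0.05, adjusted p = 0.32). Clta, the other light chain, had a mean of 0.01, at 0.09 where channel 1 held the knockout RNA and -0.08 where channel 2 did. Cltc, the heavy chain that forms the lattice, stood at 0.05 and 0.08 in mice 1 and 2 and at -0.18 and -0.23 in mice 3 and 4, with a mean of -0.07 (SE 0.06). Both Cltc probes had a negative mean, at -0.10 and -0.03.

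All 3 measured subunits of AP-2, the adaptor that joins clathrin to the plasma membrane, lay above 0 in all 4 mice, and none passed the test. Ap2m1, the medium subunit that recognises tyrosine-based sorting signals, stood at 0.14, 0.09, 0.34 and 0.26, and its mean of 0.21 (SE 0.05, 1.15-fold, adjusted p = 0.16) was the highest of the trafficking genes. Among its arrays 13 of 16 were positive. Ap2m1 lies on chromosome 16, as does the targeted gene Slc15a2, and the line has a mixed background. The part of strain differences on that chromosome in the Ap2m1 value was not tested. Ap2s1, the small subunit, stood at 0.01, 0.00, 0.29 and 0.26 (mean 0.14, SE 0.06, adjusted p = 0.31), with mice 1 and 2 at the pool and mice 3 and 4 above it. Ap2a2, a large subunit named after its values were seen, had a mean of 0.08 (SE 0.05) and 2 probes at 0.06 and 0.09. This group was formed after the values were known, so its common sign is a description. The median of the 3 subunits was 0.14, against 0.00 over all genes, and ranged from 0.09 to 0.18 when single mice were left out. It was 0.12 with knockout RNA in either channel alone, but through different subunits. With knockout RNA in channel 1 and in channel 2, Ap2m1 had means of 0.29 and 0.12. Ap2s1 had means of 0.04 and 0.23, and Ap2a2 had means of 0.12 and 0.04. Markers of the collecting duct, 3 of 8 listed measured, had positive means in all 3, and their medians in mice 1 to 4 were 0.13, 0.10, 0.25 and 0.32. The 3 did not move alike. Aqp2 was above 0 in every mouse, Hsd11b2 stood at -0.10 in mouse 2, and Slc4a1 stood at 0.09, 0.10, 0.01 and -0.06. The part of these markers in the AP-2 values was not tested, and the other marker lists are given further on.

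The other adaptors were mixed. Of AP-1, which works at the trans-Golgi network and on endosomes, 2 of 5 measured subunits were positive. Ap1b1, a large subunit, lay above 0 in every mouse at 0.03, 0.12, 0.27 and 0.08 (mean 0.13, SE 0.05, adjusted p = 0.28). Without array 2 of mouse 4, at 0.42 for Ap1b1, that mouse stood at -0.04 and the mean was 0.10. Ap1g1, the gamma subunit, stood at 0.11, 0.05, -0.40 and -0.04, and mouse 3 was far below the other three. Of AP-3 and AP-4, which serve traffic to lysosome-related organelles and out of the Golgi, 4 of 7 were positive, with a median of 0.01. Ap3m2 had a mean of 0.10, but mouse 1 stood at 0.42 through 1 array at 0.95 while mouse 2 stood at -0.10. Without mouse 1 the mean of Ap3m2 was -0.01.

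Among the Rab proteins of early and recycling endosomes, 8 of 13 had a positive mean and the median was 0.01. Rab11a, which directs cargo through the recycling endosome to the apical membrane, stood at -0.24, -0.11, -0.22 and -0.28, below 0 in every mouse. Its mean of -0.21 (SE 0.05, 1.16-fold lower) had the lowest adjusted p of all trafficking genes, 0.1449 in limma. The 2 probes of Rab11a differed more than those of any other trafficking gene. The probe with a value on all 16 arrays stood at -0.36, -0.24, -0.37 and -0.44 in the 4 mice, and the other stood at -0.12, 0.02, -0.08 and -0.12. Taken from the first probe alone, the gene was at -0.35 and passed the threshold (adjusted p = 0.03705 in limma, or 0.01683 among probes with values on all 16 arrays). From the other probe the mean was -0.08. The channel of the knockout RNA also bore on this gene, with a mean of -0.08 in channel 1 and -0.34 in channel 2. Rab11b, its close relative, named after its values were seen, stood at 0.08 (SE 0.05). A cDNA probe can bind transcripts of close relatives, which was not tested here.

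Rab10, which carries basolateral and transporter cargo, stood at -0.10, -0.04, -0.25 and -0.28, with a mean of -0.17 (SE 0.05, adjusted p = 0.19). All 4 mice were below 0, mice 3 and 4 furthest. Rab4a, which marks fast recycling from early endosomes, stood at 0.50, 0.09, 0.13 and 0.05 (mean 0.19, SE 0.08, adjusted p = 0.26). The value of mouse 1 came from a single array, array 3, at 2.03, while the remaining 15 arrays of the gene lay between -0.12 and 0.32. Without that array mouse 1 stood at 0.01 and the mean of Rab4a fell to 0.07. Of the late endosomal Rabs, Rab9, which returns mannose 6-phosphate receptors to the Golgi, stood at 0.04, 0.02, -0.48 and -0.19 (mean -0.15, SE 0.08). Array 4 of mouse 3 was at -1.28 for Rab9, and without it the mean was -0.08. Rab7, the Rab of the late endosome and lysosome, named after its values were seen, had 3 probes with means of 0.08, 0.01 and -0.13 and a gene mean of -0.01.

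**Figure D2:**
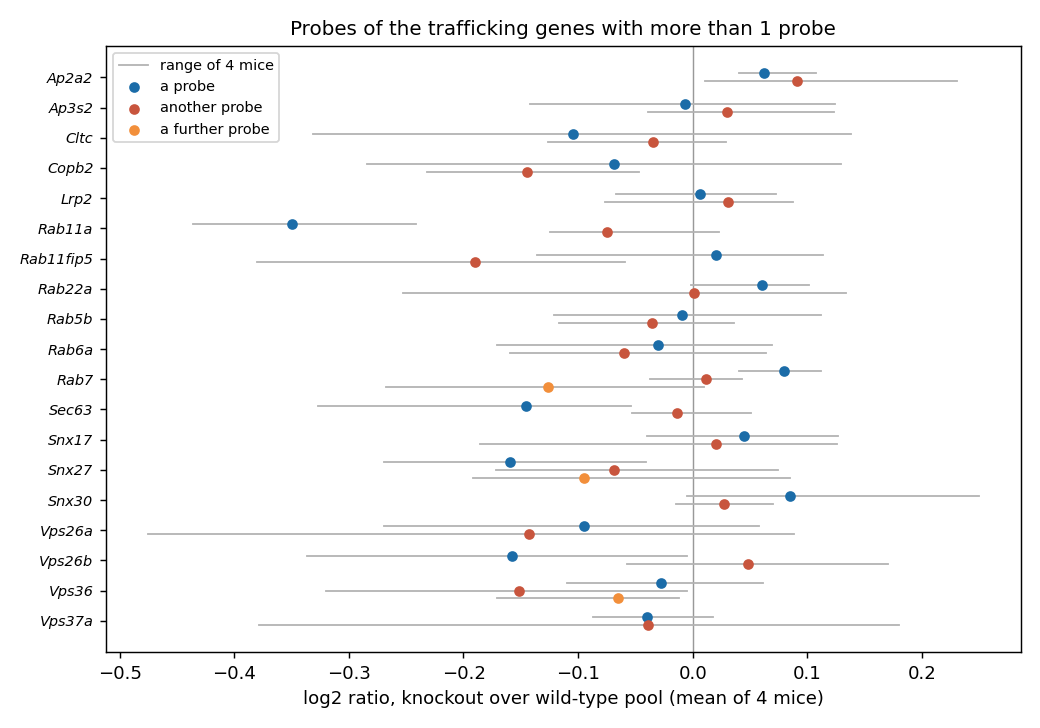
Mean log2 ratio of each probe (point, mean of 4 mice) and the range over the 4 mice (grey line) for the 19 trafficking genes with more than 1 probe. No pair of probes lies more than 0.3 apart, and the widest gap is that of Rab11a, from -0.35 to -0.08.

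Rabs of secretion and of the endoplasmic reticulum and Golgi leaned to values below 0, with 2 of 6 and 2 of 5 positive. Rab3a, a Rab of regulated secretion best known from synapses, stood at -0.25, -0.09, -0.07 and -0.14 (mean -0.14, SE 0.05, adjusted p = 0.21). All mice were below 0, yet array 2 of mouse 1 alone stood at -0.73, and without it the mean was -0.09. Rab18, a Rab of lipid droplets and the endoplasmic reticulum, had the lowest mean of the trafficking genes, -0.24 (SE 0.10, 1.18-fold lower, adjusted p = 0.29). Mice 1 and 2 lay near the pool for it and mice 3 and 4 below.

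The complex that retrieves receptors from endosomes leaned one way without any gene passing the test. All 3 measured genes of the retromer core had negative means, with a median of -0.12 and medians of -0.07, 0.05, -0.19 and -0.20 in mice 1 to 4. Without mouse 3 the median was -0.03. With 1 probe per gene, or with the first or the second pair of arrays, 1 of the 3 had a positive ratio, which touches Vps26b, whose 2 probes stood at -0.16 and 0.05. The 5 sorting nexins with a membrane-bending BAR domain that pair with retromer were also all negative, with a median of -0.09 and medians of -0.03, 0.05, -0.22 and -0.16. Without mouse 3 their median was -0.05. Both groups were formed after the values were known, so their common sign is a description.

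Snx5, one of these nexins, stood at -0.23, 0.20, -0.39 and -0.29 (mean -0.18, SE 0.09, adjusted p = 0.34), and had no value on 3 of its 16 arrays. Mouse 2 was high and the other three were low. Snx6, another of these nexins, stood at -0.02, -0.02, -0.35 and -0.26 (mean -0.16, SE 0.07, adjusted p = 0.28), with mice 1 and 2 at the pool. The remaining 11 sorting nexins were split, with 5 positive and a median of -0.01. Snx29 lay above 0 in every mouse at 0.12, 0.05, 0.26 and 0.13 (mean 0.14, SE 0.05, adjusted p = 0.22). This gene also lies on chromosome 16 with Slc15a2, and the part of strain differences there was not tested. Snx18, a nexin of endocytic and autophagic membranes, stood at 0.12, 0.11, 0.04 and 0.24 (mean 0.13, SE 0.05), with a mean of 0.34 with knockout RNA in channel 2 and -0.08 in channel 1. Its sign therefore turned with the channel, and without array 1 of mouse 3, at 0.74, the mean was 0.08.

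Genes of sorting into lysosomes did not share a direction. Of the ESCRT complexes, which form the inner vesicles of multivesicular bodies, 5 of 7 measured genes were positive, with a median of 0.03. Vps25, an ESCRT-II subunit, lay above 0 in every mouse at 0.13, 0.05, 0.22 and 0.11 (mean 0.13, SE 0.05, adjusted p = 0.23). Of the tethers HOPS and CORVET, which join endosomes to each other and to lysosomes, 2 of 4 were positive. Vps8, a CORVET subunit, stood at -0.22, -0.29, -0.13 and 0.03 (mean -0.15, SE 0.06, adjusted p = 0.26), with mouse 4 the highest. Without array 1 of mouse 4, at 0.33, that mouse stood at -0.05 and the mean of Vps8 was -0.17. Its arrays ran from -0.41 to -0.09 with knockout RNA in channel 1 and from -0.24 to 0.33 in channel 2. Vps72, the chromatin protein, stood at 0.11, 0.04, 0.17 and 0.19 (mean 0.13, SE 0.05, adjusted p = 0.23).

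The secretory pathway begins at the translocon, through which new proteins enter the endoplasmic reticulum. All 6 measured genes of the translocon and the signal peptidase had negative means, 4 of them below 0 in every mouse, with a median of -0.13 against 0.00 over all genes. Their medians in mice 1 to 4 were -0.08, -0.02, -0.13 and -0.21. Sec61g, the gamma subunit of the channel, stood at -0.25, -0.02, -0.33 and -0.37, with a mean of -0.24 (SE 0.06, 1.18-fold lower, adjusted p = 0.16). Sec61b, the beta subunit, stood at -0.07, -0.17, -0.19 and -0.34 (mean -0.19, SE 0.05, adjusted p = 0.17) and lacked a value on 1 array. Sec11a, a catalytic subunit of the signal peptidase, stood at -0.09, -0.11, -0.31 and -0.24 (mean -0.19, SE 0.05, adjusted p = 0.17). Sec61b and Sec11a had negative orientation means in every mouse, and so did Rab3a and Sec14l3 outside this group. The pore subunits Sec61a1 and Sec61a2, named after their values were seen, stood at -0.04 and -0.01. With knockout RNA in channel 1 alone, on arrays 3 and 4, and without mouse 1 or mouse 4, 5 of the 6 were negative. Among probes with values on all 16 arrays, 5 of these genes were left, all negative, with a median of -0.04. The grouping was made after the values were known.

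Coats between the endoplasmic reticulum and the Golgi were mixed. Sec23b, a GTPase-activating subunit of the outward COPII coat, stood at -0.18, 0.05, -0.43 and -0.36 (mean -0.23, SE 0.08, adjusted p = 0.20) and lacked values on 2 arrays. Mouse 2 was at the pool and the other three were below it. Sec23a, its paralogue, named after its values were seen, lay on the other side at 0.08 (SE 0.06), and 2 of the 6 COPII genes were positive. The COPI coat, which returns vesicles to the endoplasmic reticulum, had 3 of 6 measured subunits positive and a median of 0.01. Copz1 stood at 0.09, -0.03, 0.11 and 0.27 (mean 0.11, SE 0.06), Cope had a mean of 0.06 and Copz2 one of 0.04. Copb2 stood at 0.04, -0.03, -0.17 and -0.26 (mean -0.11, SE 0.06), while Copa had a mean of -0.07 and Copg1 one of -0.01. Mouse 3 was the highest of the 4 for Copa, at 0.17, and mouse 1 the lowest, at -0.24.

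The Arf GTPases, which recruit COPI and adaptors, had 3 measured genes with negative means. In values as deposited, with knockout RNA in channel 1 alone, on arrays 1 and 2, and without mouse 1 or mouse 2, 1 of the 3 was positive. Arf4, which works at the Golgi and in recycling, stood at 0.02, 0.00, -0.47 and -0.36 (mean -0.20, SE 0.09, 1.15-fold lower, adjusted p = 0.28). Arf2 stood at 0.00, -0.03, -0.29 and 0.01 (mean -0.08, SE 0.06), and mouse 3 alone was low, with a value on 1 array per orientation. Arf3 had a mean of 0.00, from 0.13 with knockout RNA in channel 1 and -0.13 in channel 2.

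SNARE proteins, which drive the fusion itself, showed no common direction among the syntaxins. Among 9 syntaxins 5 were positive, with a median of 0.01, and among 5 Vamps 1 was positive, with a median of -0.05. Stx4a, a syntaxin of the plasma membrane, lay below 0 in every mouse at -0.05, -0.12, -0.06 and -0.10 (mean -0.08, SE 0.04, adjusted p = 0.37). Without array 2 of mouse 4, at -0.44 for Stx4a, that mouse stood at 0.003 and the mean was -0.05. Stx16, of the trans-Golgi network, stood at 0.01, 0.02, -0.28 and -0.22 (mean -0.12, SE 0.06), and Stx6, of the same compartment, at 0.10, -0.13, -0.38 and 0.01 (mean -0.10, SE 0.08). In mouse 3, Stx6 had a value on only 1 array with knockout RNA in channel 2, at -0.67. Vamp2, which serves regulated insertion of transporters and channels, lay above 0 in every mouse with a mean of 0.06 (SE 0.04). Without array 2 of mouse 4, at 0.40 for Vamp2, that mouse stood at -0.02. The mean of Vamp2 was 0.16 with knockout RNA in channel 1 and -0.03 in channel 2. Vamp5 lay below 0 in every mouse with a mean of -0.09 (SE 0.05), and so did Vamp3, of recycling endosomes, with a mean of -0.05 (SE 0.05).

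**Figure D3:**
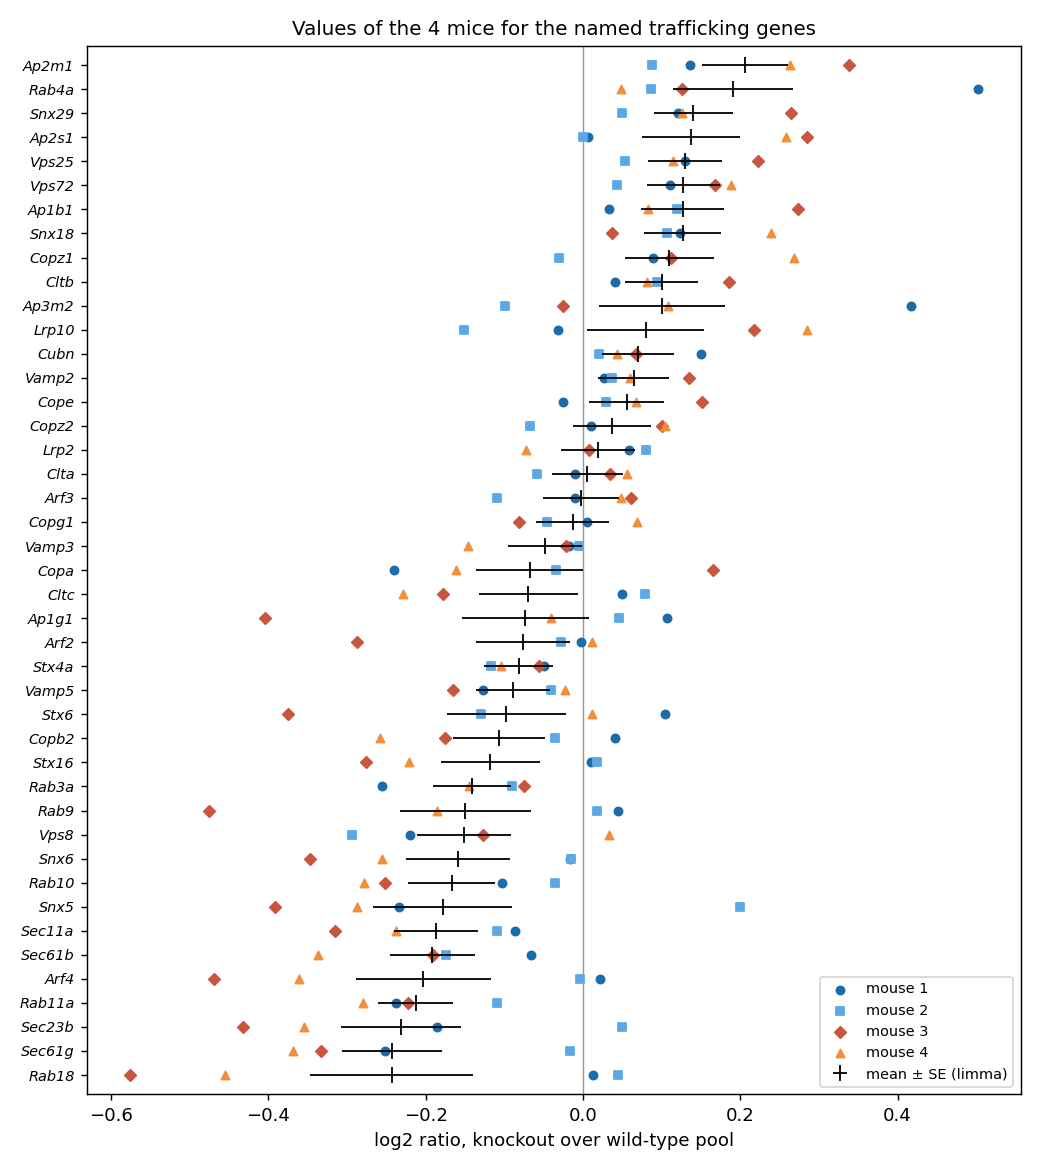
Log2 ratio of knockout over wild-type pool in each of the 4 knockout mice (coloured points) for the 43 named trafficking genes, sorted by mean, with the mean and its standard error from limma in black. Mice 3 and 4 lie at -0.58 and -0.45 for Rab18, where mice 1 and 2 lie at 0.01 and 0.05.

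The 4 knockout mice were next compared with each other on the array level, by a moderated F test that asks whether mice differ beyond the spread of their own arrays. Rab18 was the only trafficking gene to pass (adjusted p = 0.02545, 0.725% of the 138), where 162 of all genes (2.62%) did. The arrays of mouse 1 read -0.04, 0.22, -0.04 and -0.09 for Rab18, and those of mouse 2 read 0.20, -0.01, -0.07 and 0.05. The arrays of mouse 3 read -0.63, -0.17, -1.03 and -0.48, and those of mouse 4 read -0.87, -0.22, -0.36 and -0.36. Every array of mice 3 and 4 was thus negative, and the lowest array of mice 1 and 2 was above the highest array of mice 3 and 4. Both orientations gave a negative mean, -0.13 with knockout RNA in channel 1 and -0.35 in channel 2. The standard deviation between mice, 0.32, exceeded that of 98.2% of all genes. Arrays of one mouse are technical replicates, so this test compares 4 animals and not genotypes.

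The Rab18 call was kept under some alternatives and lost under others. It was kept in the values as deposited (adjusted p = 0.03409), among probes with values on all 16 arrays (0.008892), with the gene as the probe with most values (0.02565) and with the arrays scaled to the same spread (0.03737). It was lost without mouse 1, 2 or 3 (adjusted p = 0.12, 0.1158 and 0.1196) and kept without mouse 4 (0.04502). It was also lost without array 1, 2 or 3 of mouse 1, array 1 or 3 of mouse 2, array 3 or 4 of mouse 3, or array 4 of mouse 4, with adjusted p from 0.05024 to 0.06218 in these 8 cases. In the other 8 it was kept, with adjusted p from 0.01314 to 0.04778. Without array 1 of mouse 3, 3 trafficking genes were called, where 140 of all genes were. A model with no dye term gave 0.0673.

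The seminal vesicle transcript Svs5, the 1 measured of 6 listed markers of that gland, stood at 0.21, -0.09, 4.94 and 1.09 in mice 1 to 4. Markers of smooth muscle and fibroblasts, 7 of 8 measured, had medians of -0.17, 0.03, -0.23 and -0.21, and those of fat, 2 of 5 measured, had medians of -0.16, 0.06, -0.15 and -0.32. Endothelial markers, 4 of 8 measured and with Ehd3 among them, were all negative in the mean, with medians of -0.03, -0.15, -0.20 and -0.12. Proximal tubule markers, 6 of 11 measured and with Lrp2 and Cubn among them, had medians of 0.10, 0.03, 0.05 and 0.09, and those of leukocytes, 5 of 7 measured, had medians of 0.00, 0.03, 0.13 and 0.00. Slc22a8, an organic anion transporter of the proximal tubule list, was called against the pool at 0.48 (SE 0.05, adjusted p = 0.015). Umod, the 1 measured of 5 listed markers of the loop and distal tubule, stood at -0.14, -0.33, 0.19 and 0.27 and passed the F test between mice (adjusted p = 0.01224). Podxl, the 1 measured of 5 podocyte markers, stood at -0.23, -0.05, -0.17 and -0.33, below 0 in every mouse. The arrays give ratios and no levels, so how much of each cell type was present is not shown, and its part in the values of Rab18, Arf4, Sec23b and the retromer genes was not tested. The spread of log2 ratios was 0.25 to 0.35 on 7 of the 8 arrays of mice 3 and 4, against at most 0.22 in mice 1 and 2. The part of this wider spread in the Rab18 values was not tested.

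**Figure D4:**
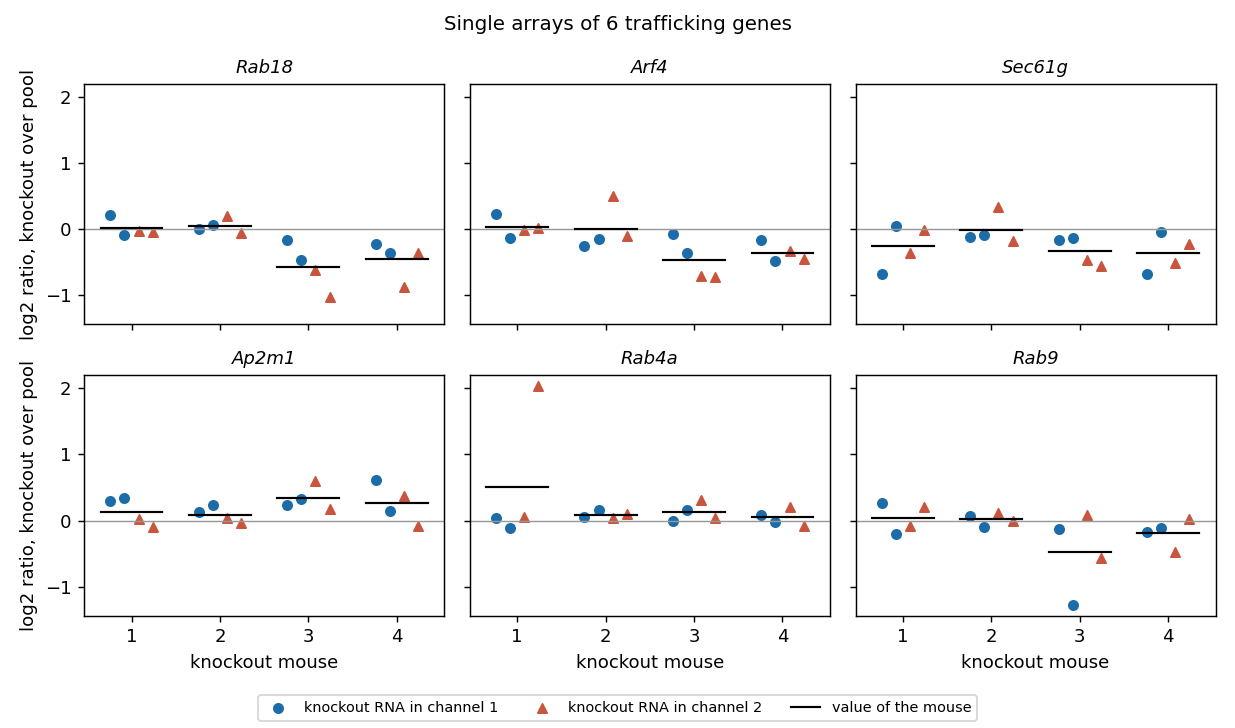
Log2 ratio of each single array (y axis) in the 4 knockout mice (x axis) for 6 trafficking genes, by the channel of the knockout RNA, with the value of each mouse as a black line. Arrays of mice 3 and 4 are all below 0 for Rab18 and Arf4, while Rab4a and Rab9 each have 1 array apart from the rest, at 2.03 and -1.28.

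Several other trafficking genes had mice far apart without passing the F test. Snx5 had a standard deviation between mice of 0.26 (adjusted p = 0.06221), Arf4 one of 0.25 (0.1962) and Rab9 one of 0.24 (0.4379). Ap1g1 and Ap3m2 followed at 0.23 each. Across all trafficking genes the median standard deviation was 0.090, against 0.099 over all genes.

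**Figure D5:**
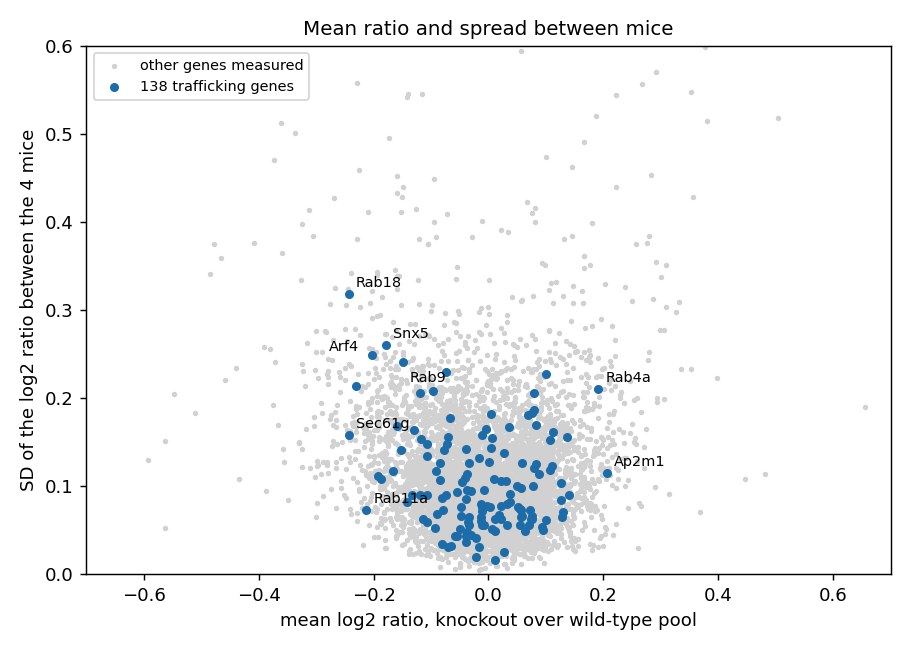
Mean log2 ratio of knockout over wild-type pool (x axis) against the standard deviation between the 4 mice (y axis) for the 138 trafficking genes and the other genes measured, without Slc15a2. Rab18 has the lowest mean and the widest spread of the trafficking genes, and 21 other genes lie outside the axes.

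The median of the trafficking genes differed with the channel that held the knockout RNA. It was 0.02 with knockout RNA in channel 1 and -0.05 with knockout RNA in channel 2. The difference between the orientations was tested per gene in limma, and no trafficking gene and no other gene passed the adjusted threshold (lowest adjusted p among the trafficking genes 0.1585). At an unadjusted p under 0.05 there were 27 trafficking genes (19.6%) and 19.5% of all genes. The mean over both orientations, used for every value against the pool, cancels an effect of the channel that adds equally in both.

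Partner genes of the same pathways, taken from 7 lists that the symbol rule does not reach, gave no call against the pool either. Of the partners of endocytic receptors, 5 of 14 measured were positive. Ehd1, which drives exit from the recycling endosome, was the most even of them at 0.18, 0.21, 0.17 and 0.24 (mean 0.20, SE 0.04, adjusted p = 0.14), while its relative Ehd3 stood at -0.17 (SE 0.05). Ehd3 is also among the endothelial markers above. Clcn5, the endosomal chloride exchanger whose loss impairs protein uptake in the proximal tubule, stood at -0.09, -0.08, -0.33 and -0.19 (mean -0.17, SE 0.06, adjusted p = 0.19). Of clathrin accessory genes and dynamins, 10 of 17 were positive, with Hgs, which gathers ubiquitinated cargo, at 0.17 (SE 0.05) and Epn1, an epsin, at 0.16 (SE 0.05). The sign of Epn1 turned with the channel, from -0.44 with knockout RNA in channel 1 to 0.76 in channel 2. Of other fusion factors, 5 of 13 were positive, with Uso1, a Golgi tether, at -0.27 (SE 0.08), Napa, which recycles SNAREs, at 0.14 (SE 0.05), and Snap29 at 0.07 (SE 0.05).

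Regulators of small GTPases were positive in 9 of 15 measured genes, with Arl2 at 0.18 (SE 0.05), Arfgap2 at 0.13 (SE 0.05) and Rabac1 at 0.13 (SE 0.05). Tethers and cargo receptors of the early secretory path were positive in 12 of 27. Mcfd2, which with Lman1 carries glycoproteins out of the endoplasmic reticulum, stood at -0.19, -0.10, -0.47 and -0.20 (mean -0.24, SE 0.06, adjusted p = 0.16), Tmed4 stood at -0.12 (SE 0.05) and Trappc5 at 0.11 (SE 0.05). Genes of ESCRT and the lysosome were positive in 4 of 17, with a median of -0.04. Among these the lysosomal protease Ctsa stood at 0.16 (SE 0.05), Ctsl at -0.12 (SE 0.05) and Chmp3 at -0.10 (SE 0.06). Of the V-ATPase, the pump that acidifies endosomes, 5 of 12 subunits were positive, with a median of -0.03.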

How the data were processed

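The authors deposited a log2 ratio per probe and array. Per the labels, that ratio was taken after background subtraction and scaled to a median of 1, and Cy3 and Cy5 were used; which dye each channel carried is unknown here. That the scale is log2 was worked out: among the 10 commonest values of an array, 46.5% of distances equal log2 of some fraction with terms up to 20 (tolerance 2e-06), and 0 do for natural or decimal logarithms. Values were read as channel 1 over channel 2, turned where knockout RNA was in channel 2, and centred on the array median. Each mouse was the average of its orientation means, and a gene the mean of its complete single-symbol probes (10804 probes, 6191 genes). Ratios were tested against 0 with limma 3.58.1 in R 4.3.3, two-sided, with Benjamini-Hochberg adjustment over all genes and a threshold of 0.05. The F test between mice used the 16 arrays with a dye term and limma's variance moderation. Both were tested on simulated data. The members, role groups and partner lists were chosen with earlier results of these data known. Named genes are the members past a threshold, the receptors, clathrin chains and COPI subunits, the 3 smallest p-values of each family and list, the 3 highest and 3 lowest means, the 8 largest standard deviations and genes whose probes differ by over 0.3. Alternatives changed centring, scaling, orientation, arrays, probes, mice and the model. Gene symbols came from the platform annotation, with 11590 probes matched by gene identifier to RefSeq.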

Additional observations from a re-analysis of the deposited data

Results flagged for a closer look

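In 3 of the 43 named trafficking genes, 1 of the 4 mice stood far from the others. Its gap to the nearest neighbour, divided by the range of the 4 mice, was above Dixon's 95% critical value for 4 samples. Chance alone would single out about 1 in 20 genes taken at random, but 8 of the 43 were named for a large spread between mice, Rab4a among them, so that rate does not apply to them. Arf2 stood at -0.287 in mouse 3, against -0.03 to 0.01 in the other mice. That value rests on 1 array per orientation, at -0.255 and -0.320. Rab4a stood at 0.502 in mouse 1, against 0.05 to 0.13 in the others, and that value came from 1 array at 2.03. Vamp3 stood at -0.146 in mouse 4, against -0.02 to -0.01 in the others.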

How the results depend on the processing

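No trafficking gene was called against wild type in the values as deposited, in either orientation alone, on either pair of arrays, after scaling of the arrays or without any 1 mouse (0 to 0). There was 1 call, Rab11a, among probes with values on all 16 arrays (64 genes tested, 40 of all genes called) and with a gene taken as the probe with most values. It describes Rab11a alone, since no share over all genes in these settings is set beside it. With the arrays as 16 measurements and the mouse as a random block there were 8, 2 higher and 6 lower (Sec61b, Sec11a, Rab11a, Ap2m1, Sec61g, Vps72, Snx6 and Sec23b), or 5.8% of them against 7.59% of all genes. That fit put the correlation within mouse at 0.01475, so technical arrays counted nearly as animals. Between mice the count was 0 to 1 when single mice were left out and 0 without a dye term. The median ratio was -0.00206 as deposited, 0.0151 with knockout RNA in channel 1, -0.0467 in channel 2, 0.0167 on arrays 1 and 2 (99 genes), -0.0362 on arrays 3 and 4 (90 genes), and -0.0150 to -0.00649 without single mice. The cause of these shifts was not tested. Of the values of named genes under the alternatives, 455 stayed within the spread between mice and 20 moved beyond it. The sign changed in 6 of 43 named and 32 of 138 trafficking genes with channel 1 alone, and in 6 and 28 with channel 2 alone. Averaging all probes of a gene first, chosen after seeing the data, gave 0 calls and a median of -0.0133. No paired analysis was possible because all mice share 1 pool. The number of mice and the spread of arrays limit the precision.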

Other observations

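Among the partner genes, 3 differed between the 4 knockout mice in the moderated F test. These were 1 of 17 clathrin accessory genes and 2 of 12 V-ATPase genes, with no call in the other lists. Of all 6191 genes, 162 (2.62%) passed. Necap1, a clathrin accessory protein, stood at 0.05, -0.02, -0.43 and -0.39 in mice 1 to 4 (adjusted p = 0.0142). Atp6v1h, the regulatory H subunit of the V-ATPase, stood at 0.00, 0.05, -0.35 and -0.37 (adjusted p = 0.0246). Atp6v1d, the D subunit in its stalk, named after its values were seen, stood at 0.04, 0.02, -0.44 and -0.36 (adjusted p = 0.0188). In all 3, mice 1 and 2 lay at the pool and mice 3 and 4 below it, as for Rab18. They are given here because they passed this test, so the shared pattern is a description. The V-ATPase genes Atp6v1g3 and Atp6ap1 stood at -0.12 (SE 0.05) and 0.11 (SE 0.05).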
